A study of Homo sapiens with 6 samples.

Results

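The genes examined here build the glycosylphosphatidylinositol (GPI) anchor and the asparagine-linked glycan (N-glycan), and their transcripts were compared between HEK293T cells given a USF1 plasmid and cells given the empty vector. A gene was taken when a probe set of the deposited table carried its symbol in the platform annotation: PIG followed by a letter, ALG followed by digits, DPM, MGAT followed by a digit, or a named subunit or enzyme of the same routes (among them *STT3A*, *STT3B*, *RPN1*, *RPN2*, *DDOST*, *DAD1*, *DPAGT1*, *MOGS*, *GANAB*, *PMM1*, *MPI* and *PGAP1* to *PGAP3*). This gave 47 genes on 72 probe sets, of 9584 named genes on the arrays. Of the 47 genes, 28 had 1 probe set and 19 had several, and a gene was then represented by the probe set with the highest mean over the arrays. A further 4 probe sets carry several symbols, *ALG10* or *ALG11* among them, and name no gene here. Genes of the rule without a probe set in the table, such as *PIGQ*, *PIGW*, *GPAA1*, *ALG1*, *OSTC* and *PMM2*, are not analysed here.

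Both routes begin at the endoplasmic reticulum membrane and share a mannose donor, dolichol phosphate mannose. A GPI anchor is built stepwise on phosphatidylinositol, receives mannose and ethanolamine phosphate, and is then passed whole to the C terminus of a protein by the GPI transamidase, so that the protein is held at the cell surface by lipid. For N-glycans, a branched oligosaccharide is assembled on dolichol, first on the cytosolic and then on the luminal face of the membrane, and the oligosaccharyltransferase moves it to asparagine on nascent proteins. Glucosidases then trim it, and N-acetylglucosaminyltransferases of the Golgi set its branches. Inherited defects of either route cause congenital disorders of glycosylation.

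HEK293T is an established cell line from human embryonic kidney, transformed with adenovirus DNA and expressing SV40 large T antigen. The USF1 group was transfected transiently with a pcDNA4/HisMax plasmid carrying the coding region of *USF1*, a transcription factor that binds E-box DNA. The Empty vector group received the vector alone, and RNA was collected 48 hours after transfection in both. There were 3 arrays in each group. The cells also make USF1 of their own, so the comparison is one of added USF1 against the endogenous level. The arrays held 1 probe set named for *USF1* alone, with a difference of -0.07 (SE 0.19) and an adjusted p-value of 0.836 from limma, and, without a source for where its probes lie, it cannot check for message made from the plasmid. The paper reports a western blot that showed the over-expressed USF1 protein. Of 7 markers listed for this line 4 were measured, with *NEFM* between 10.1 and 10.6 on the log2 scale, *NEFL* between 7.87 and 8.16, *INA* between 5.98 and 6.47 and *EYA1* between 4.26 and 4.79. Between the groups *EYA1* (-0.41, adjusted p-value of 0.0211 from limma) and *INA* (-0.39, adjusted p-value of 0.0240) fell, and the other two did not pass. None of the markers of fibroblasts, leukocytes, adipocytes, hepatocytes or endothelial cells was measured. All levels below are deposited RMA expression values on the log2 scale. All differences are USF1 minus Empty vector on that scale, and a gene is said to have changed where limma gave an adjusted p-value under 0.05 over all 16569 probe sets. Nothing in the labels or methods ties the arrays of a group to separate transfections, so the p-values rest on a spread between arrays that may be technical.

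USF1 binds the palindrome CACGTG, so promoter sequence was read for the genes that have it and for the changed gene with the largest difference. RefSeq windows of 300 bases, from 250 bases before to 50 after a transcript start in GRCh38.p14, were found for 40 of the 47 genes. Of these, 3 genes (7.5%) held CACGTG, against 8.77% of all 27305 genes with a window. Stretches of 60 bases are shown 5′ to 3′ on the strand of the gene, with the match in capitals. They lie at chr1:20661370-20661429 on the minus strand for *DDOST*, chr3:184249548-184249607 on the minus strand for *ALG3* and chr21:37073198-37073257 on the minus strand for *PIGP*. The matches began 13, 55 and 159 bases before the start, in that order.
DDOST: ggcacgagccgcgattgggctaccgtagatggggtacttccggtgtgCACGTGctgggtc
ALG3: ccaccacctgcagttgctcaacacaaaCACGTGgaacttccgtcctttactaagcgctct
PIGP: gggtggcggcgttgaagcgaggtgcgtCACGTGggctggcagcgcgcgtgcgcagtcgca
The near matches CATGTG and CACATG, which are each other's reverse complement, were found in 3 of 40 genes (*DPM3*, *MGAT1* and *PIGV*), against 13.4% of all genes. *PIGV* is shown because its difference was among the largest (chr1:26786978-26787037 on the plus strand, match beginning 49 bases before the start). *ALG9* is shown because its transcript changed, and it held none of these letters in its windows. Its stretch ends at the base before one of its starts (chr11:111871302-111871361 on the minus strand).
PIGV: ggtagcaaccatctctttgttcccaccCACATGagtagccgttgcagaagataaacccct
ALG9: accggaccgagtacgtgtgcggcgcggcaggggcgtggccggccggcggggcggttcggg
A match in a window describes the letters there and not binding. The 3 genes with CACGTG had differences of 0.05 (*DDOST*), -0.19 (*ALG3*) and -0.05 (*PIGP*), and none of them changed. *PIGF*, the other changed gene, has no window in the table used.

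Of the 47 genes, 2 fell in cells with added USF1 and none rose. The 2 were *PIGF*, which works in the addition of ethanolamine phosphate to the GPI anchor, and *ALG9*, a mannosyltransferase of the dolichol-linked oligosaccharide. Over all named genes, 8.89% fell and 5.19% rose, so the genes of these routes were not called more often than genes at large. At an unadjusted p-value under 0.05, 10 of the 47 were lower and 3 higher, beside 23.9% and 10.6% of all named genes. In 15 genes all USF1 arrays lay below all Empty vector arrays, and in 6 they lay above, beside 27.5% and 12.6% of all named genes. With every array centred on its own median, the same 2 genes were called lower and none higher, where 5.9% of all named genes were called lower and 7.35% higher. The median difference of the 47 genes was -0.11 and that of all named genes was -0.08, and after centring they were -0.04 and -0.01. No set of these genes was tested as a set, because the members were chosen with results of these data known.

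**Figure D1:**
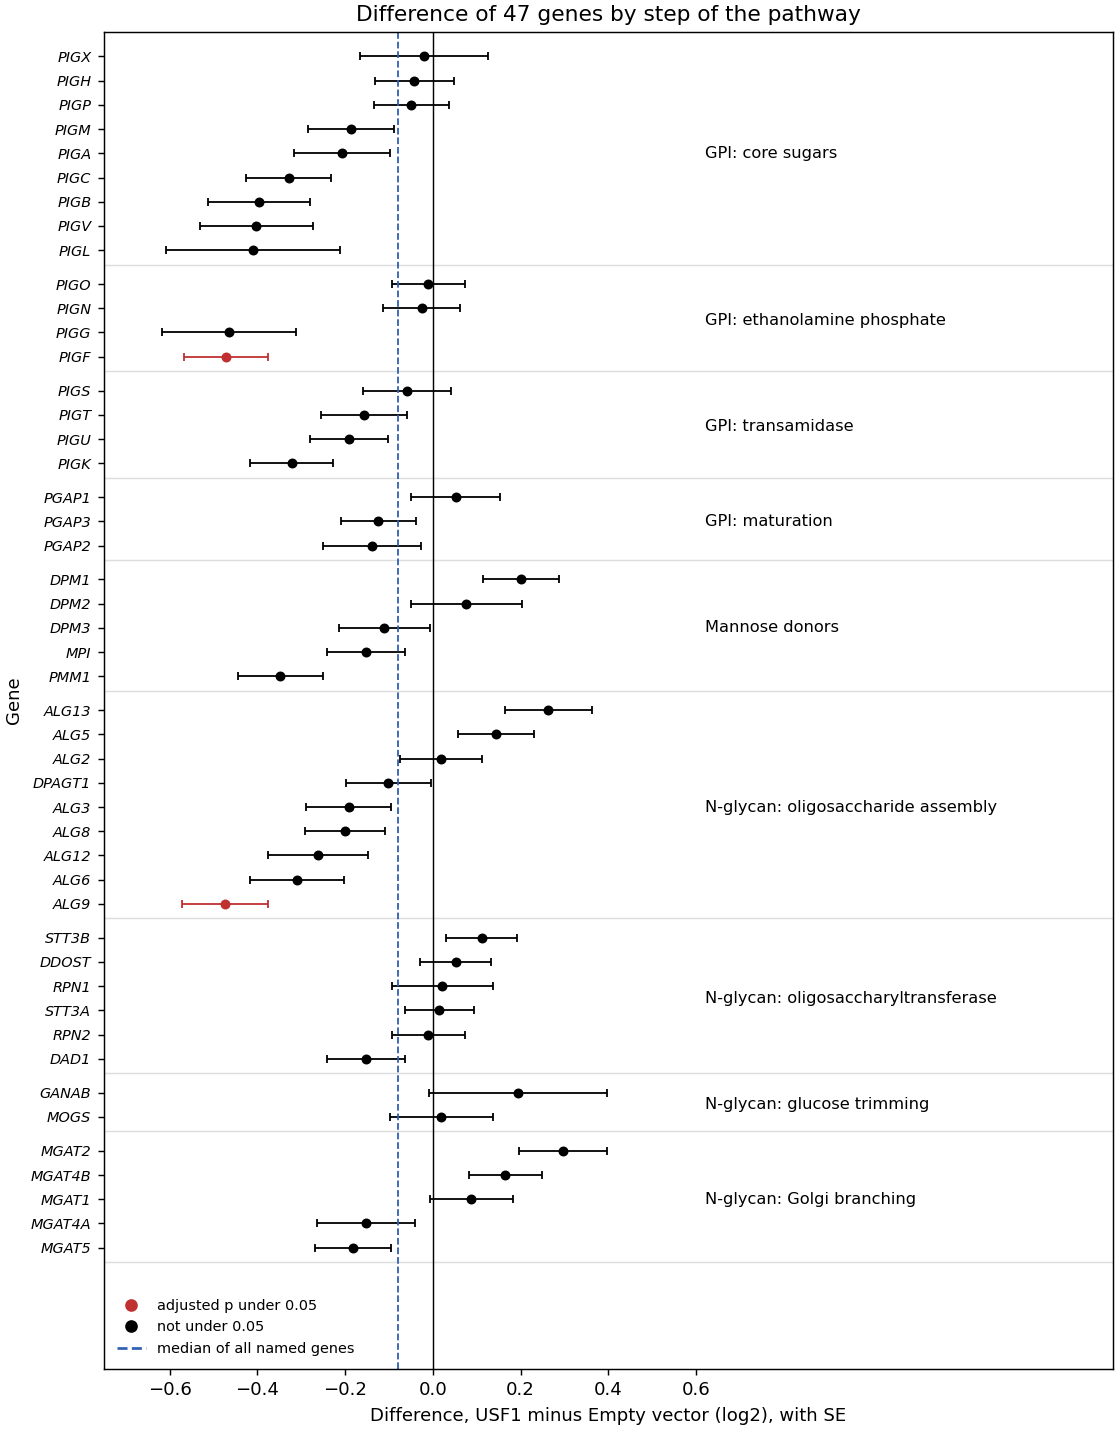
Log2 difference between USF1 and Empty vector (horizontal axis) for each of the 47 genes (vertical axis), grouped by step of the routes, with the standard error from limma as bars and 3 arrays in each group. Red marks the genes with an adjusted p-value under 0.05 (*PIGF* and *ALG9*), and the dashed line is the median of all named genes (-0.08); 19 of the 20 GPI anchor genes lie left of 0 (13 with arrays centred), while the oligosaccharyltransferase subunits lie close to 0.

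Most of the 20 GPI anchor genes had slightly lower values in USF1 arrays. As deposited, differences were below 0 in 19 genes (13 after centring) and above 0 in *PGAP1*, with a median of -0.17. *PIGF* changed, 6 of the 20 were lower at an unadjusted p-value under 0.05, and in 8 the USF1 arrays lay below all Empty vector arrays. Of all named genes, 8.89% fell, 23.9% were lower at an unadjusted p-value under 0.05, and 27.5% had all USF1 arrays below. With arrays centred the median was -0.10, and after a further quantile normalization 15 were below 0 with a median of -0.11. Over all named genes 63.4% of differences were below 0 as deposited and 51.9% after centring.

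Levels of the GPI genes and a value of RNA quality both set Empty vector replicates 1 and 2 apart from the other arrays. Across arrays, the median deviation of the 20 genes from their own means was 0.15, 0.15 and 0.04 in Empty vector replicates 1, 2 and 3, and -0.05, -0.04 and -0.13 in USF1 replicates 1, 2 and 3. Every USF1 array was thus below every Empty vector array, with Empty vector replicate 3 nearest to them. The 5′ minus 3′ value of the actin control probe sets, which is lower where less signal comes from the 5′ part of the transcript, was -1.34, -1.04 and -0.52 in Empty vector replicates 1 to 3, and -0.53, -0.68 and -0.49 in the USF1 arrays. For GAPDH it was -0.58 in Empty vector replicate 1 and between -0.35 and -0.26 in the others. The 2 arrays with the lowest actin values were therefore the 2 with the highest GPI gene levels, and the part of RNA quality in the difference was not tested. With Empty vector replicate 3 as the lone control array, which leaves out both, 16 of the 20 genes were below 0 with a median of -0.15, and none was called, beside 56.2% of all named genes below 0 with a median of -0.04. For the 22 N-glycan genes the same medians were 0.08, 0.01 and 0.01 in Empty vector and 0.02, 0.00 and -0.06 in USF1 arrays, which overlap.

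**Figure D2:**
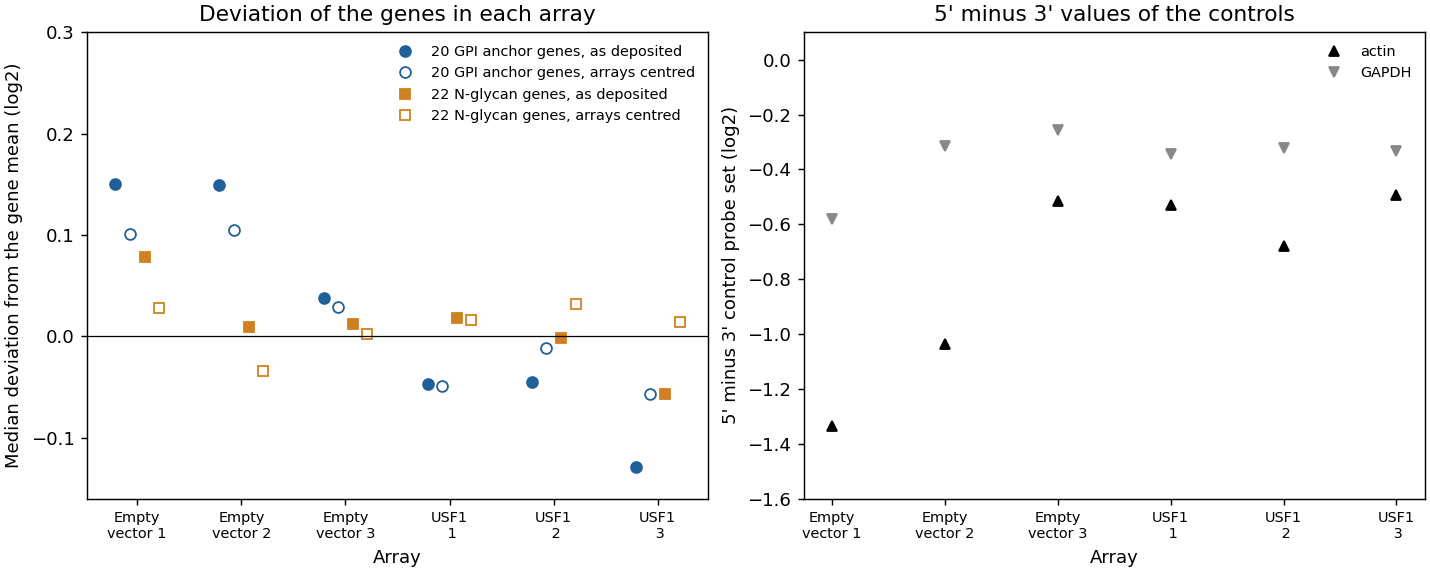
Left, the median deviation of the 20 GPI anchor genes (circles) and the 22 N-glycan genes (squares) from each gene's mean over the 6 arrays (log2, vertical axis), per array, as deposited (filled) and with arrays centred on their medians (open). Right, the 5′ minus 3′ difference of the actin and GAPDH control probe sets (log2) in the same arrays: Empty vector replicates 1 and 2 have the highest GPI gene values (both 0.15 as deposited) and the lowest actin values (-1.34 and -1.04).

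Early enzymes of the GPI anchor make N-acetylglucosaminyl phosphatidylinositol and then add mannoses. Of the 9 genes of this step measured, none changed and 3 were lower at an unadjusted p-value under 0.05, beside 23.9% of all named genes. Differences were below 0 in 9 of them as deposited (median -0.21) and in 6 after centring (median -0.14), beside 63.4% and 51.9% of all named genes. *PIGA*, *PIGC*, *PIGH* and *PIGP* encode subunits of the first transferase. *PIGC* was at 8.23, 8.44 and 8.22 in USF1 arrays and at 8.70, 8.62 and 8.55 in Empty vector arrays. The groups did not overlap, but the difference of -0.33 (SE 0.10) did not pass the threshold (adjusted p-value of 0.0589 from limma). *PIGA*, the X-linked subunit whose somatic loss in blood stem cells underlies paroxysmal nocturnal hemoglobinuria, had a difference of -0.21 (SE 0.11), with 95% limits of -0.45 and 0.04. *PIGP* (-0.05) and *PIGH* (-0.04) lay within their standard errors of 0.

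*PIGL* removes the acetyl group from the first sugar. Its arrays were 5.42, 6.13 and 5.34 in USF1 and 5.99, 6.21 and 5.92 in Empty vector cells. USF1 replicate 2 sat among the Empty vector arrays and the other USF1 arrays were well below them. The difference was -0.41 with an SE of 0.20 (adjusted p-value of 0.197 from limma). It became -0.66 with an adjusted p-value of 0.0176 without USF1 replicate 2. Of the fits that each left out 1 array, *PIGL* was called in that one alone, and the adjusted p-value from limma reached 0.508 in another. A second *PIGL* probe set had a difference of -0.31 (SE 0.11) with the groups apart, and was not called.

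The mannosyltransferases *PIGM*, *PIGV* and *PIGB* add the first, the second and the third mannose. *PIGV* was at 5.77, 5.72 and 5.35 in USF1 arrays and at 6.16, 5.98 and 5.91 in Empty vector arrays. The groups were apart, the difference was -0.40 (SE 0.13, adjusted p-value of 0.074 from limma), and its second probe set gave -0.36 (SE 0.10). *PIGB* was at 4.66, 4.77 and 4.73 in USF1 arrays and at 5.33, 5.11 and 4.90 in Empty vector arrays. Its USF1 arrays lay close together while its Empty vector arrays spread over a wider range, and the difference was -0.40 (SE 0.12, adjusted p-value of 0.06 from limma). *PIGM* differed by -0.19 (SE 0.10) with overlapping arrays, and *PIGX*, which stabilizes *PIGM*, by -0.02 (SE 0.15).

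Ethanolamine phosphate is added to the mannoses by *PIGN*, *PIGO* and *PIGG*, and *PIGF* partners *PIGO* and *PIGG*. *PIGF* was at 7.22, 7.31 and 7.08 in USF1 arrays and at 7.64, 7.77 and 7.62 in Empty vector arrays. All USF1 arrays were below all Empty vector arrays, the means were 7.21 ± 0.12 and 7.68 ± 0.08 (SD, n = 3 arrays each), and *PIGF* fell by 27.9% (difference -0.47, SE 0.10, adjusted p-value of 0.0203 from limma). The second *PIGF* probe set was also apart, at -0.31 (SE 0.10), and was not called (adjusted p-value of 0.0786). The call was kept after centring (adjusted p-value of 0.0262 from limma) and was lost without USF1 replicate 1 (0.0755), without USF1 replicate 3 (0.0911) or without Empty vector replicate 2 (0.0745), with differences between -0.52 and -0.41 over the 6 fits that each left out 1 array.

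*PIGG*, which places ethanolamine phosphate on the second mannose, had almost the same difference as *PIGF* but more spread. It was at 5.87, 6.22 and 5.57 in USF1 arrays and at 6.34, 6.43 and 6.28 in Empty vector arrays, a difference of -0.46 (SE 0.15, adjusted p-value of 0.0785 from limma). Without USF1 replicate 2, the USF1 array nearest to the Empty vector arrays, the difference was -0.63 and passed (adjusted p-value of 0.0207). Of the fits that each left out 1 array, *PIGG* was called in that one alone, and the adjusted p-value from limma reached 0.238 in another. *PIGN* (-0.03, SE 0.09) and *PIGO* (-0.01, SE 0.08), the transferases for the first and the third mannose, lay within their standard errors of 0, with 95% limits of -0.23 and 0.17 for *PIGN* and of -0.20 and 0.18 for *PIGO*.

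The transamidase cleaves the signal at the C terminus and attaches the anchor, with *PIGK* as its catalytic subunit. None of its 4 measured genes changed at the probe set with the highest mean, and their median was -0.17. *PIGK* was at 7.87, 8.10 and 7.96 in USF1 arrays and at 8.25, 8.38 and 8.26 in Empty vector arrays. The groups were apart, with a difference of -0.32 (SE 0.09, adjusted p-value of 0.0589 from limma). A second, dimmer *PIGK* probe set was at 6.90, 6.77 and 6.59 against 7.20, 7.23 and 7.03. That probe set fell (difference -0.40, SE 0.11, adjusted p-value of 0.0449 from limma), a call lost after centring (0.0556) and whichever array was left out. *PIGU* (-0.19, SE 0.09), *PIGT* (-0.16, SE 0.10) and *PIGS* (-0.06, SE 0.10) did not pass, and in *PIGU* alone of these the arrays were apart.

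**Figure D3:**
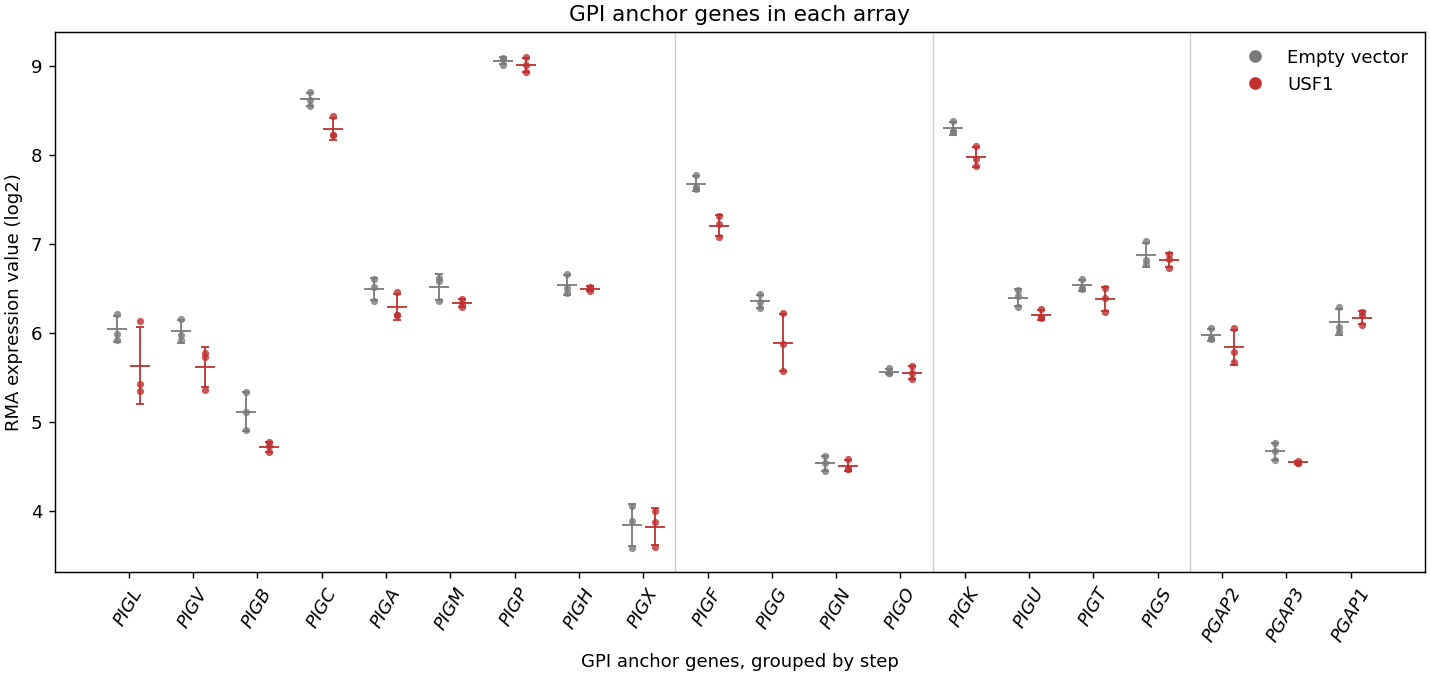
The 20 GPI anchor genes, as RMA values (vertical axis, log2 scale), in each of 3 Empty vector arrays (grey) and 3 USF1 arrays (red), with the mean (long bar) and SD (error bar); grey lines divide core assembly, ethanolamine phosphate addition, transamidase and maturation, and within each the genes are ordered by difference. *PIGF*, *PIGC*, *PIGV*, *PIGB* and *PIGK* show red points wholly below grey ones, while *PIGO*, *PIGN*, *PIGP* and *PIGX* overlap, and levels of different probe sets are not comparable.

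After attachment, *PGAP1* removes the acyl chain from inositol, *PGAP3* acts in the exchange of the lipid's fatty acid, and *PGAP2* follows *PGAP3*. None changed at the probe set with the highest mean (-0.14 for *PGAP2*, -0.12 for *PGAP3* and 0.05 for *PGAP1*). The 4 probe sets of *PGAP1* disagreed. The brightest had a difference of 0.05 (SE 0.10), and the others had -0.50 (SE 0.10), -0.34 (SE 0.13) and -0.07 (SE 0.16). The probe set at -0.50 was at 4.14, 4.21 and 4.27 in USF1 arrays against 4.60, 4.63 and 4.90 in Empty vector arrays and fell (adjusted p-value of 0.022 from limma). No direction is therefore given for *PGAP1* as a gene, as the files do not say which transcript ends the probe sets read.

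Mannose reaches both routes through *MPI*, the phosphomannomutases and the DPM complex. None of the 5 genes measured changed, and their median was -0.11. *PMM1*, a phosphomannomutase, was at 5.58, 5.52 and 5.35 in USF1 arrays and at 5.85, 5.74 and 5.91 in Empty vector arrays. The groups were apart and the difference of -0.35 (SE 0.10) was just outside the threshold (adjusted p-value of 0.0517 from limma). *DPM1*, the catalytic subunit of dolichol phosphate mannose synthase, went the other way with no overlap, at 8.56, 8.66 and 8.70 in USF1 and 8.37, 8.51 and 8.43 in Empty vector arrays, a difference of 0.20 (SE 0.09, adjusted p-value of 0.153 from limma). The small subunits *DPM2* (0.08, SE 0.13) and *DPM3* (-0.11, SE 0.10) and the isomerase *MPI* (-0.15, SE 0.09) had overlapping arrays.

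Among the 22 N-glycan genes, *ALG9* fell, 10 differences were below 0 and 12 above, and the median was 0.02. The 9 genes that assemble the oligosaccharide on dolichol had a median of -0.19 (-0.12 after centring), with *ALG9* called. At an unadjusted p-value under 0.05, *ALG9*, *ALG6* and *ALG12* were lower and *ALG13* was higher, beside 23.9% and 10.6% of all named genes. *ALG9*, which adds mannoses inside the endoplasmic reticulum, was at 6.09, 6.09 and 5.92 in USF1 arrays and at 6.64, 6.44 and 6.44 in Empty vector arrays. All USF1 arrays were below all Empty vector arrays, the means were 6.03 ± 0.10 and 6.51 ± 0.12 (SD, n = 3 arrays each), and *ALG9* fell by 28.0% (difference -0.47, SE 0.10, adjusted p-value of 0.0216 from limma). Its second probe set was apart in the same direction at -0.42 (SE 0.14, adjusted p-value of 0.0815 from limma). The call was kept after centring (adjusted p-value of 0.0266) and was lost without USF1 replicate 1 (0.0714), without USF1 replicate 3 (0.0999) or without Empty vector replicate 2 (0.0586), with differences between -0.51 and -0.40.

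Of the enzymes that work on the luminal face *ALG9* alone was called, and none of those on the cytosolic face was. On the luminal side, the mannosyltransferase *ALG12* differed by -0.26 (SE 0.11) and *ALG3* by -0.19 (SE 0.10), and the glucosyltransferases *ALG6* and *ALG8* by -0.31 (SE 0.11) and -0.20 (SE 0.09). *ALG6* was at 8.0, 7.75 and 8.0 in USF1 arrays and at 8.36, 8.15 and 8.16 in Empty vector arrays, apart but not called (adjusted p-value of 0.0911 from limma). On the cytosolic side, *DPAGT1*, which starts the chain and is the target of tunicamycin, differed by -0.10 (SE 0.10), and *ALG2*, which adds mannoses, by 0.02 (SE 0.09). *ALG5*, which makes dolichol phosphate glucose, differed by 0.14 (SE 0.09).

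*ALG13*, a subunit of the transferase for the second N-acetylglucosamine, was the oligosaccharide gene furthest above 0. Its brightest probe set was at 6.67, 6.89 and 6.87 in USF1 arrays and at 6.49, 6.67 and 6.49 in Empty vector arrays, apart by a narrow margin, with a difference of 0.26 (SE 0.10, adjusted p-value of 0.114 from limma). Its other probe sets had differences of -0.16 (SE 0.11), 0.04 (SE 0.12) and 0.10 (SE 0.13) with overlapping arrays, so the probe sets disagree. The 3 probe sets shared by *ALG10* and *ALG10B* had differences of -0.26, -0.29 and -0.42, and the one shared by *ALG11* and *UTP14C* had -0.12. None of these was called, and they cannot be ascribed to either gene.

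The oligosaccharyltransferase showed small differences. None of its 6 measured subunits changed, none passed an unadjusted p-value under 0.05, and the differences ran from -0.15 to 0.11. *STT3A*, a catalytic subunit that acts during translocation, was at 8.32, 8.26 and 8.28 in USF1 arrays and at 8.24, 8.28 and 8.30 in Empty vector arrays. The difference was 0.01 (SE 0.08), with 95% limits of -0.17 and 0.19. *STT3B*, the catalytic subunit that acts mostly after translocation, was at 8.42, 8.47 and 8.53 against 8.37, 8.38 and 8.33, apart, with a difference of 0.11 (SE 0.08). *DAD1* lay apart on the other side (-0.15, SE 0.09), and *RPN1* (0.02), *DDOST* (0.05) and *RPN2* (-0.01) overlapped. The 3 probe sets of *RPN2* had differences of -0.01, 0.02 and 0.06. Over the subunits, the 95% limits reached from -0.36 at the lowest (*DAD1*) to 0.30 at the highest (*STT3B*), so changes smaller than these are not shown to be absent.

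Trimming of glucose by *MOGS* and *GANAB* showed no call. *GANAB*, the catalytic subunit of glucosidase II, was at 8.63, 8.54 and 8.49 in USF1 arrays and at 7.83, 8.74 and 8.50 in Empty vector arrays. Empty vector replicate 1 was far below all the others and set the difference of 0.19 (SE 0.20), which was -0.07 without that array, and the second *GANAB* probe set had -0.02 (SE 0.10). *MOGS* had a difference of 0.02 (SE 0.12).

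Branching enzymes of the Golgi split in direction, with 3 of 5 above 0. *MGAT2*, which starts the second antenna of complex glycans, was at 9.65, 9.91 and 9.78 in USF1 arrays and at 9.44, 9.60 and 9.42 in Empty vector arrays. The groups were apart with a difference of 0.30 (SE 0.10, adjusted p-value of 0.0858 from limma). The other *MGAT2* probe sets were apart in the same direction, at 0.34 (SE 0.09) and 0.55 (SE 0.20). The first of them, at 8.37, 8.50 and 8.34 against 8.18, 8.01 and 7.99, rose (adjusted p-value of 0.0483 from limma), and of the fits that left out 1 array it was called in that without Empty vector replicate 1. *MGAT4B* was above 0 (0.17, SE 0.08) and apart, and *MGAT1*, which starts complex glycans, was at 0.09 (SE 0.09). *MGAT5*, the enzyme of the β1,6 branch, was lower by arrays that did not overlap (-0.18, SE 0.09), and *MGAT4A* differed by -0.15 (SE 0.11).

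Counted by probe sets, 5 of the 72 changed, 4 lower (*PIGF*, *ALG9*, *PIGK* and *PGAP1*) and 1 higher (*MGAT2*), beside 7.6% of all probe sets lower and 4.32% higher. Of the 72, 23 had all USF1 arrays below all Empty vector arrays and 8 had them above, beside 4058 and 1926 of all 16569 probe sets. Among the 19 genes with several probe sets, those of *PIGB*, *PIGC*, *PIGF*, *PIGK*, *PIGV*, *ALG9* and *MGAT2* were apart in 1 direction within each gene. Probe sets of a gene read the same arrays, and the share of all named genes with every probe set apart was not counted.

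Other genes of the same routes that the rule did not take were counted from lists written from general knowledge. Each count of changed genes is to be read beside the 5.19% of all named genes that rose and the 8.89% that fell. Of 13 measured genes for dolichol and sugar donors, 1 rose and none fell: *UAP1*, which makes UDP-N-acetylglucosamine, was at 8.76, 8.68 and 8.75 in USF1 arrays and at 8.48, 8.38 and 8.23 in Empty vector arrays (difference 0.37, SE 0.09, adjusted p-value of 0.039 from limma). Of 14 measured further GPI anchor and oligosaccharyltransferase genes, 1 rose and none fell. It was *PGAP4*, which puts N-acetylgalactosamine on the anchor as a side chain, with 6.53, 6.14 and 6.46 against 5.84, 6.08 and 5.84 (difference 0.46, SE 0.12, adjusted p-value of 0.0492 from limma). In both genes the arrays were apart, and in each the call was kept in 1 of the 6 fits that left out an array. None of 17 measured genes for lectin folding and glycan trimming in the endoplasmic reticulum changed. At an unadjusted p-value under 0.05, 0 were higher and 2 lower, beside 10.6% and 23.9% of all named genes.

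Of 24 measured genes that process N-glycans in the Golgi, 4 rose and 1 fell, beside 5.19% and 8.89% of all named genes. *NAGPA*, the uncovering enzyme of the mannose 6-phosphate signal, was at 5.45, 5.49 and 5.40 in USF1 arrays and at 4.94, 4.79 and 4.89 in Empty vector arrays. Its difference of 0.58 (SE 0.08, adjusted p-value of 0.00715 from limma) was called without each array in turn. *GNPTG*, a subunit of the transferase that starts the same signal, rose by 0.64 (SE 0.12, adjusted p-value of 0.0157 from limma), and the mannosidases *MAN1A1* and *MAN2A2* rose by 0.41 (SE 0.10) and 0.37 (SE 0.10). *SLC35A1*, the carrier of CMP-sialic acid into the Golgi, fell, with 6.53, 6.46 and 6.44 against 7.02, 7.04 and 6.84 (difference -0.49, SE 0.09, adjusted p-value of 0.0157 from limma). The calls of *GNPTG* and *SLC35A1* were each kept in 3 of the 6 fits that left out an array. Those of *MAN1A1* and *MAN2A2* were each kept in only 2 of the 6 fits. Leaving out USF1 replicate 1 or USF1 replicate 3 was among the fits that lost both.

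Of 27 measured genes for proteins that carry a GPI anchor, 2 rose and none fell, beside 5.19% and 8.89% of all named genes. *EFNA3*, an ephrin ligand, rose by 0.54 (SE 0.10, adjusted p-value of 0.0157 from limma), and *SEMA7A*, a semaphorin, by 0.53 (SE 0.11, adjusted p-value of 0.0211). Both calls were lost without USF1 replicate 1, without USF1 replicate 3 or without Empty vector replicate 2. After centring, *MELTF* and *ULBP2* were also called higher, which makes 4 of 27, beside 7.35% of all named genes. Of 23 measured genes of the translocon and signal recognition particle, 2 rose and none fell, namely *SRP54* by 0.43 (SE 0.09, adjusted p-value of 0.0225 from limma) and *SEC61A1*, the pore subunit, by 0.32 (SE 0.09, adjusted p-value of 0.0476). Over all these lists the arrays give transcript levels, and neither glycans nor surface proteins were measured.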

How the data were processed

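Expression was measured on Affymetrix arrays, 3 for USF1 and 3 for Empty vector, grouped by title. The authors deposited log2 RMA values (justRMA in R 2.8.0, as their methods and the labels name it), after masking nonspecific probes, filtering probe sets by remaining probes and absent calls, and a ComBat batch correction whose batches are not given. Deposited log2 values were analysed unchanged with lmFit and eBayes of limma 3.58.1 in R 4.3.3, without covariates, over 16569 probe sets (33 of them controls), with Benjamini-Hochberg adjustment at 0.05. Intensities were not used, and the number of arrays limits the precision. Symbols came from the platform annotation: 15093 probe sets had 1 symbol, 570 several and 873 none. Of 9584 named genes, 9583 were matched to RefSeq by Entrez ID. The members and lists were chosen with earlier results of these data known. Text names every called member, the members with the largest differences, members whose probe sets disagree, and up to 4 called genes of each list; further members complete a group. In simulated data the fit recovered 46 of 100 changes of 0.5 and 100 of 100 changes of 1 on the log2 scale, with 5 false calls. Changes smaller than 0.5 were not simulated. Alternatives were other normalizations, filters, priors, tests, probe sets, array weights, a replicate block and leaving out arrays.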

Additional observations from a re-analysis of the deposited data

How the results depend on the processing

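The p-values that the paper lists for *PIGF* (0.00639) and *ALG9* (0.00645) are those of a t-test with unequal variances. At an unadjusted p-value of 0.05 or less, the t-test called 15 of the 47 genes with equal variances (10 lower, 5 higher) and 10 with unequal variances (6 lower, 4 higher). It called *PIGF* and *ALG9* in both, and it called 4265 and 3419 of all 16569 probe sets. After Benjamini-Hochberg adjustment it called no gene of the 47 and 0 of the 72 probe sets with either (160 and 1 of all probe sets, beside 1974 with limma), and it left 0 calls in each step of the routes and in each further list, except 1 gene of Golgi processing with equal variances. Without the 25% of probe sets with the lowest mean, 5 of the 41 genes left were called, beside 410 of 7803 named genes higher and 814 lower. With a trended and robust prior, 7 of the 47 were called (1 higher, 6 lower), beside 563 of 9584 named genes higher and 1182 lower. Of the 47 genes, 8 were called with array weights, 1 at the probe set with the lowest mean and 4 with the mean over probe sets. The setting with Empty vector replicate 3 as the lone control array was chosen after seeing the data, and that array is assumed to vary like the others. Probe sets called numbered 10 with the trended and robust prior, 15 with array weights and 1 with the lone control array, and over all probe sets 3688 were called with array weights and 277 with the lone control.

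With arrays left out in turn, 0 to 6 of the 47 genes were called (0 without USF1 replicate 1, without USF1 replicate 3 or without Empty vector replicate 2, and 6 without USF1 replicate 2), with 0 to 10 probe sets and 369 to 2222 of all probe sets. Fewer arrays leave less power, and these counts bear that too. The ranges were 0 to 2 for GPI core assembly and for ethanolamine phosphate, 0 to 1 for the transamidase and for oligosaccharide assembly, 0 to 2 for sugar donors, 0 to 1 for further GPI genes, 1 to 6 for Golgi processing, 0 to 3 for GPI-anchored proteins and 0 to 2 for the translocon.

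By step, GPI core assembly had 0 calls and then 1 without the lowest 25%, 1 with the trended prior and 3 with array weights. Ethanolamine phosphate addition had 1 and then 2 with array weights, 0 with the lone control and 0 at the probe set with the lowest mean. The transamidase had 0 and then 1 without the lowest 25%, with the trended prior, with array weights, at the probe set with the lowest mean and with the mean over probe sets. The mannose donors had 0 and then 1 (*PMM1*) without the lowest 25%, with the trended prior and with array weights. Oligosaccharide assembly had 1 and then 2 with the trended prior, 0 with the lone control and 0 at the probe set with the lowest mean. Golgi branching had 0 and then 1 with the trended prior and with the mean over probe sets. Among the lists, sugar donors had 2 with array weights, further GPI genes 2 with the trended prior, and GPI-anchored proteins 4 after centring or quantile normalization, 1 without the lowest 25% and 5 with array weights. With the lone control, each of these 5 lists with calls had 0.

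The median difference of the 47 genes was -0.11, and it was -0.0417 after centring, -0.0520 after quantile normalization, -0.0474 with array weights, -0.0306 with the lone control and between -0.148 and -0.0652 with arrays left out in turn. It stayed below 0 in each of these. Higher values made up 36.2% of all calls as deposited, 56.1% after centring and 50.4% after quantile normalization.

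Deviations of same-numbered arrays correlated at 0.0958, 0.246 and 0.129, and those of other pairs between -0.171 and 0.0246. Every array thus correlated best with its own number. The labels number the arrays but state no pairing, so the main fit used none, and whether the arrays were paired is not settled. With the replicate block, 6 of the 47 genes (1 higher, 5 lower) and 12 of the 72 probe sets were called. In the same fit 609 of all 9584 named genes were called higher and 1297 lower, and 2875 of all probe sets were called. The 6 genes included 1 in GPI core assembly, 2 in ethanolamine phosphate addition, 1 in the transamidase and 1 in Golgi branching. Among the lists, sugar donors had 2 and further GPI genes 0. Apart from shrinking the set of features and of samples where named, the cause of these moves was not tested. The number of arrays limits the precision, and genes of the routes without a deposited probe set were not analysed.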

Other observations

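Promoters of several of these genes are shared with a neighbour that starts on the other strand. By RefSeq starts in GRCh38.p14, 16 of the 40 genes with a promoter window had such a neighbour within 500 bases. Of these, 9 had one that was itself measured under its own name. The 7 genes without a window could not be assessed, and the share over all genes was not counted. The differences of gene and neighbour had the same sign in 5 of these 9 pairs. *PIGB* and *RAB27A*, a small GTPase of vesicle transport whose start lies 99 bases away, differed by -0.40 and -0.37, and *RAB27A* fell (SE 0.09, adjusted p-value of 0.0309 from limma) while *PIGB* did not pass. *ALG12* and *CRELD2*, a chaperone of the endoplasmic reticulum, went in opposite directions (-0.26 and 0.19), as did *DPM1* and *MOCS3* (0.20 and -0.17) and *MGAT4B* and the autophagy receptor *SQSTM1* (0.17 and -0.17), none of them called. The arrangement of starts was taken from the annotation and the pairs were not tested as pairs.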
